A study of Mus musculus with 8 samples.

Results

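The KLF, SP and EGR genes encode transcription factors that bind GC-rich DNA through zinc fingers at or near the end of the protein. They were taken as every gene whose symbol is Klf with a number, Sp with a number from 1 to 9 or Egr with a number from 1 to 4 in the annotation of the array. This gave 28 of the 18996 genes analysed, with 16 *Klf*, 8 *Sp* and 4 *Egr* genes. *Klf14* and *Sp2* were not analysed here. Where several probes named a gene, the brightest over the 8 samples stood for it.

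The genes were measured in the distal tips of wild type mouse lungs at E12.5, when the epithelium branches into the surrounding mesenchyme. The tips, which carried mesothelium, were digested with dispase and parted with needles to give 4 epithelium and 4 mesenchyme samples, although the labels call the source an organ homogenate. The methods and the sample labels give C57BL/6 or C57BL/6J embryos, while BALB/c stands in the series description, and no sample received a transgene or a treatment. Each of the 4 arrays carried 1 epithelium sample in Cy3 and 1 mesenchyme sample in Cy5, so that dye and tissue cannot be told apart in any value given here. All 10 markers of epithelium were higher in the epithelium samples (2.89 to 7.33) and all 10 of mesenchyme in the mesenchyme samples (-3.16 to -0.52). However, 8 of 10 smooth muscle genes (median 2.59) were also higher in the epithelium samples. So were 6 of 7 markers of neural crest and neurons (median 1.54). Whether other cells remained in the epithelium samples was not tested. Values are normalized signals on the log2 scale, and each difference is epithelium minus mesenchyme, tested with limma without pairing and called at an adjusted p under 0.05 over all genes. Since each probe has its own brightness, signals of different genes were not set against each other as expression levels, and percentiles of signal only show how near a probe was to the dim end of the array.

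KLF proteins bind CACCC and GC elements, and the proteins differ mainly in the partners they bring to them. KLF3, KLF8 and KLF12 recruit the corepressor CtBP, KLF9, KLF10, KLF11, KLF13 and KLF16 recruit SIN3A, and KLF1, KLF2, KLF4, KLF5, KLF6 and KLF7 act largely as activators. SP1, SP3 and SP4 are broadly expressed factors of GC boxes, while SP5 to SP9 are restricted regulators of embryonic patterning. EGR proteins are immediate early factors, made within minutes of growth factor signaling, and are held in check by the corepressors NAB1 and NAB2. In the mouse lung, *Klf5* is required in the epithelium for maturation before birth, and *Klf2* was first described as a factor of the lung and of its vessels.

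The upstream sequences of 3 genes are shown because the results return to them: *Klf2*, whose probes differed; *Sp5*, a target of WNT signaling; and *Egr2*, a target of serum response factor (SRF). The sequences are from RefSeq on GRCm38.p6, all on the plus strand, with 250 bases before the annotated start for *Klf2* and *Sp5* and 30 bases around each match for *Egr2*. Capitals mark the match to the MEF2 site in *Klf2*, to AACAAAG or ATCAAAG (TCF/LEF site, on either strand) in *Sp5* and to the CArG box bound by SRF in *Egr2*.
Klf2, chr8:72318812-72319061: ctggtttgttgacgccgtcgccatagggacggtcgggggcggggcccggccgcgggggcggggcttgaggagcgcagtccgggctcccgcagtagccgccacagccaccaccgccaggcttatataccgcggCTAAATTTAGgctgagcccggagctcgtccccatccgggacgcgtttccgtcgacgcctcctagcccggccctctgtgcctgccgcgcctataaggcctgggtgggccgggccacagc
Sp5, chr2:70474673-70474922: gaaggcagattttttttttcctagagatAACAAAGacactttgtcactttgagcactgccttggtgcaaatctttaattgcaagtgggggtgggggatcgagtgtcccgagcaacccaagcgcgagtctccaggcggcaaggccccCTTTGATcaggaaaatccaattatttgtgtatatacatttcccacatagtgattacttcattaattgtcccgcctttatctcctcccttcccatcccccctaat
Egr2, chr10:67537484-67537513: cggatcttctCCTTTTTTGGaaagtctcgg
Egr2, chr10:67537787-67537816: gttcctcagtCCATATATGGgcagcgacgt
Windows were found for 21 of the 28 genes, some with several starts, which gave 29 windows. *Klf5*, *Klf10*, *Klf16*, *Sp6*, *Sp7*, *Egr1* and *Egr3* had no window, so their upstream sequences were not searched for any site. Over all 32851 windows of the table, searched on both strands in the 250 bases before the start, the MEF2 site was found in 0.508%, the TCF/LEF site in 8.06% and the CArG box in 1.47%. Among the 29 windows, the MEF2 site was found only in that of *Klf2* and the TCF/LEF site only in that of *Sp5*. The CArG box was found in 4 of the 5 windows of *Egr2*, 3 of which overlap and share 1 match, and in 1 window of *Klf8*. The GC box GGGCGG lay in 65.5% of the 29 windows against 32.7% of all windows, and the KLF element CCNCNCCC, which can share bases with it, in 72.4% against 45.9%. A match is a description of the letters, and binding was not measured.

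Of the 28 genes, 7 passed towards the epithelium and 10 towards the mesenchyme, while 11 did not pass the test. Over all genes, 21.2% were called higher in the epithelium and 24.8% higher in the mesenchyme, or 45.9% in either direction, against 60.7% of the 28. The 17 genes called were also those in which the samples of the tissues did not overlap, against 20.3% of all genes without overlap towards the epithelium and 24.0% towards the mesenchyme, or 44.3% together. No filter on dim signals was applied, and 4 of the 28, *Klf17*, *Sp9*, *Egr3* and *Egr4*, were among the dimmest 30% of genes by mean signal. The differences ran from -2.60 for *Egr1* to 3.38 for *Klf5*. The median of the 28 was -0.13, with -0.03 over all genes, and the median size without regard to sign was 0.43 against 0.24. A difference of at least 1 was found in 9 of the genes called, 3 towards the epithelium and 6 towards the mesenchyme, or 32.1% against 13.9% of all genes. In 5 of them, *Klf5*, *Sp5*, *Klf9*, *Sp8* and *Egr1*, it was at least 2, as in 5.19% of all genes. When arrays were kept as replicate blocks, because samples of 1 array varied together, 8 genes passed towards the epithelium and 14 towards the mesenchyme, or 78.6% of the 28, against 26.5%, 30.9% and 57.4% of all genes.

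**Figure D1:**
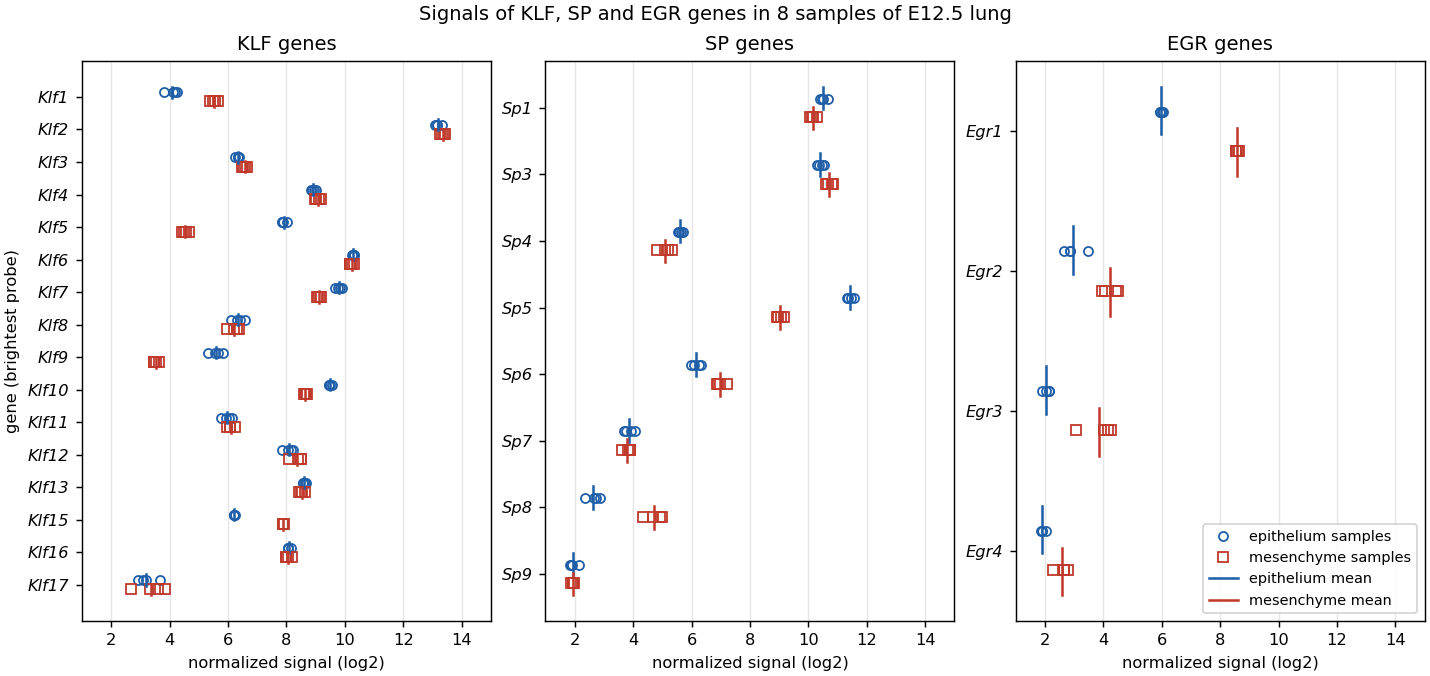
Normalized signals (log2, x axis) of the 28 genes (y axis) in each sample, with circles for the 4 epithelium samples, squares for the 4 mesenchyme samples and short lines for the means. The tissues are well apart for *Klf5*, *Klf9*, *Klf15*, *Sp5*, *Sp8* and *Egr1*, whereas the points of *Klf6*, *Klf16*, *Sp7* and *Sp9* overlap.

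**Figure D2:**
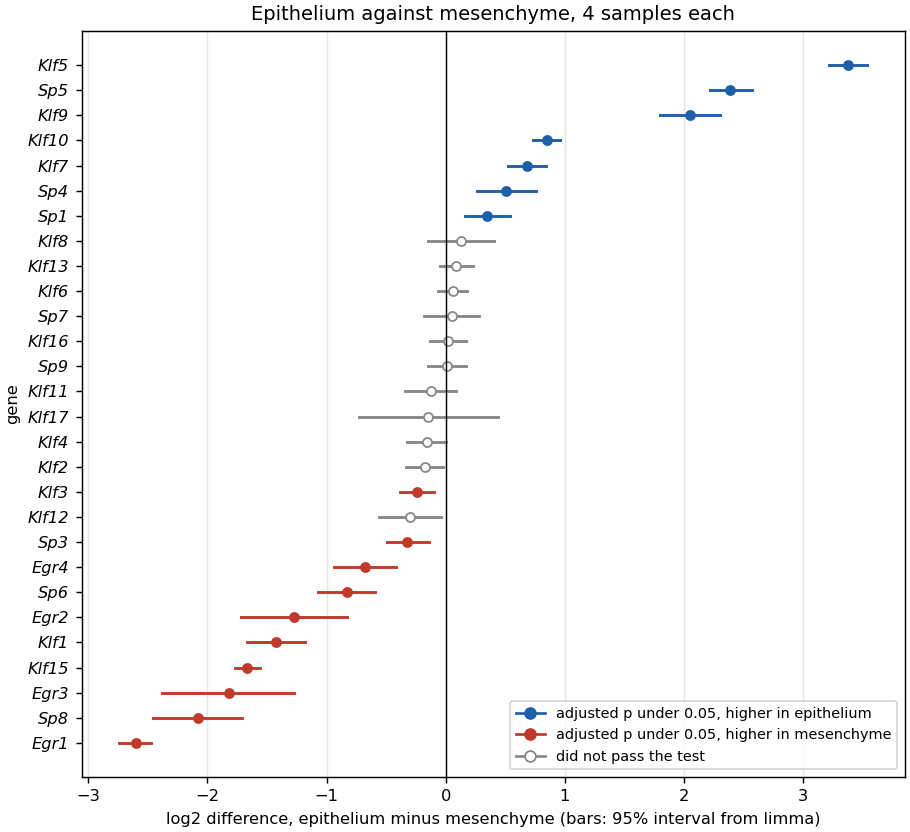
Log2 difference, epithelium minus mesenchyme (x axis), of each gene (y axis), with the 95% interval from limma and n = 4 samples of each tissue. The 7 blue genes passed the test towards the epithelium, up to 3.38 for *Klf5*, the 10 red genes towards the mesenchyme, down to -2.60 for *Egr1*, and the 11 open points did not pass.

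Among the activators, *Klf5* set the epithelium apart most clearly. Epithelium samples read 7.90, 7.86, 7.86 and 8.03, and mesenchyme samples 4.41, 4.56, 4.50 and 4.66, so that even the dimmest epithelium sample was far above the brightest mesenchyme sample. The gene was thus 10.4-fold higher on the epithelial side (3.38, SE 0.07, limma adjusted p = 3.05e-09). The other probe of *Klf5*, from a separate transcript record, was dim in both tissues (2.25 ± 0.13 and 2.34 ± 0.14, SD, n = 4) and did not differ detectably (-0.09, limma adjusted p = 0.505 over all probes). A gap of 3.47 thus lay between the *Klf5* probes, matched or exceeded in 0.511% of genes with several probes. *Klf7*, known for its role in the outgrowth of neurons, was also higher in the epithelium, with 9.67, 9.76, 9.83 and 9.92 against 9.06, 9.07, 9.18 and 9.15 in the mesenchyme. Its difference was smaller (0.68, SE 0.07, limma adjusted p = 4.36e-05), and its other probe gave a similar value of 0.52. Of 7 markers of neural crest and neurons analysed, 6 were higher in the epithelium samples as well, with mean signals of 5.74 to 5.83 against 4.47 to 4.53, and their part in the value of *Klf7* was not tested.

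The SIN3A-binding group was unevenly divided. *Klf9*, a repressor induced by glucocorticoid and thyroid hormone, read 5.84, 5.65, 5.55 and 5.30 in epithelium samples against 3.48, 3.48, 3.54 and 3.63 in mesenchyme samples, a 4.14-fold difference (2.05, SE 0.11, limma adjusted p = 6.17e-07). Its other probe, with the same transcript record, gave 1.32 (limma adjusted p = 1.57e-06 over all probes). *Klf10*, a gene first found by its rapid induction by TGF-beta, read 9.50, 9.47, 9.55 and 9.45 against mesenchymal signals of 8.63, 8.69, 8.66 and 8.60 (0.85, SE 0.05, limma adjusted p = 1.19e-06). Samples of 1 tissue lay close together for both genes except for the spread of *Klf9* in the epithelium (SD 0.23). The close relative of *Klf10*, *Klf11*, differed by -0.12 (95% interval -0.34 to 0.09), *Klf13* by 0.09 (-0.05 to 0.23) and *Klf16* by 0.02 (-0.13 to 0.17), and none of these passed without pairing. Under the replicate block by array, *Klf11* passed towards the mesenchyme (limma adjusted p = 0.0454) and *Klf13* towards the epithelium (limma adjusted p = 0.0496). The corepressor gene *Sin3a* itself was higher in the epithelium (0.36, SE 0.07) and *Sin3b* in the mesenchyme (-0.39, SE 0.09).

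The CtBP-binding genes lay near 0. *Klf3* was higher in the mesenchyme, with 6.53, 6.65, 6.48 and 6.59 against 6.24, 6.33, 6.34 and 6.39 in the epithelium, a gap of 1.18-fold (-0.24, SE 0.06, limma adjusted p = 0.0095). Without replicate 2 the adjusted p of *Klf3* was 0.0563, and its other probe gave -0.09. *Klf12* had a lower signal in the epithelium on all 4 arrays and did not pass without the pairing (-0.30, SE 0.11, limma adjusted p = 0.0613). It passed with the array as a replicate block (limma adjusted p = 0.00364), and the second of its 4 probes by brightness gave -0.42 (limma adjusted p = 9.84e-04 over all probes). *Klf8*, an X-linked gene, did not differ detectably (0.13, 95% interval -0.15 to 0.41). Of the CtBP genes, *Ctbp2* was higher in the mesenchyme (-0.55, SE 0.06), while *Ctbp1* had a difference of 0.04 and did not pass.

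*Klf1*, the activator of globin genes in red cells, was higher in the mesenchyme. It read 4.12, 3.81, 4.25 and 4.20 on the epithelial side and 5.65, 5.38, 5.50 and 5.54 on the mesenchymal side, without overlap and with a difference of -1.42 (SE 0.11, limma adjusted p = 5.46e-06). Of 8 erythroid markers analysed, 7 were higher on the same side, with mean signals of 8.85 to 9.03 against 5.94 to 6.04 and 2 of the 8 at the dim end in the epithelium, and their part in the value of *Klf1* was not tested. Of 10 known target genes of KLF1, 7 passed towards the mesenchyme and 3 towards the epithelium (median -3.18, with -0.03 over all genes), but 6 of the 7 are also among the erythroid markers just counted, so the counts are not separate observations. The embryonic globin genes *Hbb-y* (-5.02, SE 0.07) and *Hbb-bh1* (-4.26, SE 0.09) had the largest differences towards the mesenchyme, and *Dmtn*, for a protein that bundles actin in red cells and elsewhere (1.24, SE 0.12), and the cell cycle gene *E2f2* (0.90, SE 0.06) those towards the epithelium. *Gata1*, the erythroid partner of KLF1, did not pass (-0.16, SE 0.18). Its signals were near the dim end in both tissues, at percentile 33.2 in the epithelium and 34.5 in the mesenchyme. In bulk tissue, fewer cells of a type and less RNA per cell cannot be told apart.

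*Klf2*, a factor of the vessel wall induced by blood flow, gave a different picture with each of its 2 probes, although both carry the same transcript record. The brighter probe, which stood for the gene, read 13.09, 13.16, 13.33 and 13.15 in epithelium samples against 13.27, 13.34, 13.43 and 13.38 in mesenchyme samples. The tissues overlapped, and the difference did not pass (-0.17, SE 0.07, limma adjusted p = 0.0687), although it passed with the array as a replicate block (adjusted p = 0.00822). The dimmer probe read 7.44, 7.57, 7.48 and 7.24 against 11.10, 11.11, 11.09 and 11.02. On this probe *Klf2* was lower in every epithelium sample by a wide margin (-3.65, SE 0.08, limma adjusted p = 3.29e-09 over all probes). The gap of 3.48 between the probes was matched or exceeded in only 0.486% of the 8226 genes with several probes. The brighter probe was at percentile 98.4 of all probes and the dimmer at percentile 80.9, so neither was near the dim end of the array. Which of the probes reports the transcript was not tested.

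The genes around *Klf2* were mostly higher in the mesenchyme. Of 10 endothelial markers, all 10 were higher there, with differences of -4.68 to -1.58 and mean signals of 9.18 to 9.23 against 5.62 to 5.95, and their part in the value of the dimmer *Klf2* probe was not tested. Of 4 endothelial genes known to respond to KLF2, *Nos3*, for endothelial nitric oxide synthase (-3.45, SE 0.12), *S1pr1*, for a sphingosine phosphate receptor (-2.79, SE 0.16), and *Edn1*, for endothelin (-0.71, SE 0.10), were higher in the mesenchyme. The fourth, *Thbd*, for thrombomodulin, did not pass without pairing (-0.13, SE 0.09), but passed towards the mesenchyme with the array as a replicate block (limma adjusted p = 0.0128). The list does not part genes raised by KLF2 from genes lowered by it, so these directions are only described. *Klf2* and *Klf4* are induced through the kinases MEK5 and ERK5 and the MEF2 factors, and held down in the endothelium by the cerebral cavernous malformation proteins. Of 11 genes of this route, 7 passed towards the mesenchyme and 1 towards the epithelium (median -0.29), led by *Heg1*, for a membrane partner of those proteins (-2.60, SE 0.09), and *Mef2c* (-2.26, SE 0.08), for one of the factors of MEF2 sites. The gene in the other direction was the kinase gene *Map3k2* (0.37, SE 0.08), joined under the replicate block by *Map2k5*, the gene of MEK5 (0.11, limma adjusted p = 0.0298). *Klf4* itself, known from epithelial barriers and pluripotent cells, read 8.96, 8.86, 8.84 and 9.03 against 9.13, 8.98, 9.03 and 9.18, with overlap. Its epithelial signal was the lower on all 4 arrays, by a small margin (-0.16, SE 0.07, limma adjusted p = 0.0981, and 0.00659 with the array as a replicate block). *Klf6*, an early response gene, did not pass (0.06, 95% interval -0.06 to 0.18), while its other probe passed at a small difference of 0.27 (limma adjusted p = 0.0364 over all probes).

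*Klf15*, a metabolic regulator induced by glucocorticoids, had the most even values of the genes called. It read 6.22, 6.21, 6.24 and 6.21 against mesenchymal signals of 7.87, 7.89, 7.92 and 7.87 (SD 0.01 and 0.03). The mesenchyme was thus 3.17-fold higher (-1.67, SE 0.04, limma adjusted p = 9.64e-09), and its dimmer probe gave -1.11 (limma adjusted p = 1.03e-04 over all probes). *Klf9*, also induced by glucocorticoids, lay on the other side. *Klf17*, a gene of the early embryo and of germ cells, was dim in both tissues (means of 3.21 ± 0.32 and 3.36 ± 0.50, SD, n = 4) and did not differ detectably (-0.15, 95% interval -0.73 to 0.44).

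The broadly expressed SP genes all passed the test, but with small differences and not on the same side. *Sp1* read 10.67, 10.45, 10.39 and 10.50 in epithelium samples against 10.31, 10.14, 10.04 and 10.12 in mesenchyme samples, a 1.27-fold difference towards the epithelium (0.35, SE 0.08, limma adjusted p = 0.00802). *Sp3*, which competes with SP1 for GC boxes, read 10.36, 10.30, 10.45 and 10.52 against 10.66, 10.60, 10.80 and 10.83, a 1.24-fold difference towards the mesenchyme (-0.32, SE 0.07, limma adjusted p = 0.00792). On each array *Sp1* was higher in the epithelium and *Sp3* in the mesenchyme. Without replicate 4 the adjusted p of *Sp1* was 0.0512, and the other probe of *Sp3*, at percentile 6.9 of all probes, gave 0.11. *Sp4*, best known from neurons, was higher in the epithelium (5.61 ± 0.09 against 5.10 ± 0.22, SD, n = 4) by 0.51 (SE 0.11, limma adjusted p = 0.00486), and by 0.64 with its other probe.

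*Sp5* and *Sp8* lay at opposite ends of the patterning genes. *Sp5*, for a repressor that is a direct target of WNT/beta-catenin signaling, read 11.33, 11.36, 11.47 and 11.55 against mesenchymal signals of 8.93, 8.95, 9.18 and 9.07, and was 5.26-fold higher on the epithelial side (2.39, SE 0.08, limma adjusted p = 2.63e-08). The study picked *Sp5* partly on this array, so its direction is not independent evidence. Of 7 other WNT target genes, 4 passed towards the epithelium and 2 towards the mesenchyme (median 0.45). *Rnf43* (2.99, SE 0.13) and *Notum* (1.77, SE 0.07), which encode feedback inhibitors, were higher in the epithelium with *Sp5*, and *Lef1* (-1.42, SE 0.12) and *Nkd2* (-0.68, SE 0.16) were higher in the mesenchyme. *Axin2*, the most widely used target of the pathway, did not differ detectably (-0.02, SE 0.07).

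*Sp8*, required for the outgrowth of limb and forebrain, read 2.34, 2.65, 2.73 and 2.86 in epithelium samples against 4.67, 4.33, 4.99 and 4.92 in mesenchyme samples. The mesenchyme was 4.23-fold higher (-2.08, SE 0.16, limma adjusted p = 8.15e-06). Among all genes, the epithelium signal lay at percentile 21.2 and the mesenchyme signal at percentile 40.3, so the epithelial value was near the dim end of the array. *Sp6*, a gene of tooth and hair epithelium, was higher in the mesenchyme too (6.16 ± 0.16 against 6.99 ± 0.16, SD, n = 4, difference -0.83, SE 0.10, limma adjusted p = 2.01e-04). Its other probe was dim and gave 0.01. *Sp7*, the regulator of bone formation osterix (0.05, 95% interval -0.18 to 0.28), and *Sp9*, a relative of *Sp8* at percentile 0.305 of mean signal (0.01, -0.15 to 0.17), did not differ detectably.

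All 4 EGR genes were higher in the mesenchyme on all 4 arrays, with a median of -1.55. *Egr1*, the most widely induced of the group, read 6.02, 5.94, 5.93 and 6.06 in epithelium samples against 8.53, 8.66, 8.63 and 8.54 in mesenchyme samples. The 6.08-fold difference was the largest towards the mesenchyme among the 28 genes by the brightest probe (-2.60, SE 0.06, limma adjusted p = 3.99e-09), and the SD within a tissue was at most 0.07. *Egr2*, the Krox20 factor of myelinating glia, read 2.86, 2.65, 2.86 and 3.48 against 4.50, 3.96, 4.05 and 4.43, without overlap (-1.27, SE 0.20, limma adjusted p = 6.72e-04). All 9 probes of *Egr2* analysed, which share 1 transcript record, passed towards the mesenchyme with differences of -1.27 to -0.89.

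*Egr3*, for a factor of muscle spindles and lymphocytes, read 2.03, 2.15, 2.13 and 1.89 against 4.02, 4.25, 3.06 and 4.17. Mesenchyme replicate 3 was well below the other mesenchyme samples, though still above every epithelium sample (-1.82, SE 0.24, limma adjusted p = 2.81e-04). The other probe of *Egr3*, from another transcript record, was at percentile 15 of all probes and did not differ detectably (0.25, limma adjusted p = 0.261 over all probes). A gap of 2.07 lay between the *Egr3* probes, matched or exceeded in 2.7% of genes with several probes. *Egr4* was dim, with a mean of 1.92 ± 0.07 against 2.60 ± 0.23 (SD, n = 4) (-0.68, SE 0.11, limma adjusted p = 0.00106). The epithelium signals of *Egr2*, *Egr3* and *Egr4* all lay among the dimmest 30% of genes there, at percentiles 26.5, 3.41 and 0.663.

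**Figure D3:**
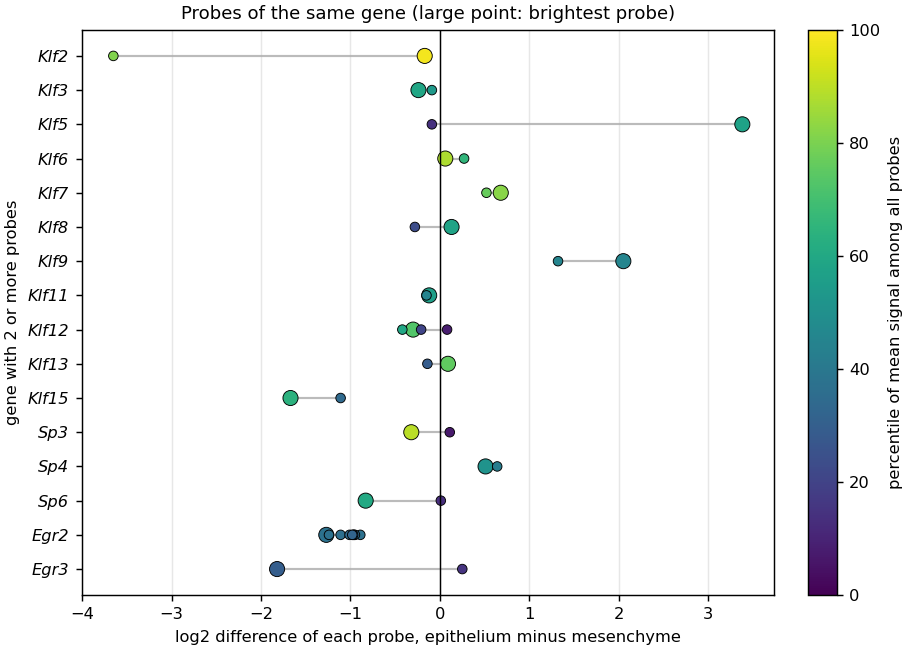
Log2 difference, epithelium minus mesenchyme (x axis), of every probe of the 16 genes with 2 or more probes (y axis), coloured by the percentile of the mean signal, with a large point for the brightest probe. The probes of *Klf2* lie 3.48 apart and both are bright, whereas the second probes of *Klf5* and *Egr3* are dim and near 0.

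The corepressors of the EGR proteins were on the same side. *Nab1* had a difference of -1.07 (SE 0.07) and *Nab2*, itself an EGR target, of -0.88 (SE 0.07), the largest towards the mesenchyme among 13 genes for cofactors and ubiquitin ligases of the family. Of these 13, 5 passed towards the mesenchyme and 3 towards the epithelium, the latter led by the acetyltransferase gene *Kat2b* (0.63, SE 0.11) and *Hdac1* (0.50, SE 0.06), and 5 did not pass (median 0.04). The replicate block turned this balance to 6 towards the epithelium and 5 towards the mesenchyme, since *Ep300* (0.23, limma adjusted p = 0.0471), *Crebbp* (0.14, limma adjusted p = 0.00769) and the ubiquitin ligase gene *Wwp1* (0.10, limma adjusted p = 0.019) then passed. EGR genes are induced by ERK through SRF and its partners. SRF binds CArG boxes, and matches to these are the letters in capitals in the *Egr2* sequences. Of 8 genes of this route, 4 were higher in the mesenchyme, with *Elk3* (4.01-fold, 95% interval of the log2 difference -2.17 to -1.83) and *Srf* (-0.73, SE 0.11) in front, and 1, the SRF coactivator gene *Mrtfa* (0.30, SE 0.07), in the epithelium. *Myocd*, for another SRF coactivator, was listed with the smooth muscle genes and not with these 8. It was higher in the epithelium by a larger difference (2.43, SE 0.08). The ERK kinase genes *Map2k1* (-0.09) and *Map2k2* (-0.02) did not pass.

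Other immediate early genes lay on both sides. Of 20 immediate early and stress genes, 9 passed towards the epithelium and 8 towards the mesenchyme (median 0.08), and their mean signal was 8.36 to 8.39 in epithelium samples against 8.29 to 8.33 in mesenchyme samples. *Jun* (2.70, SE 0.08) and *Fos* (1.51, SE 0.14) were higher in the epithelium, whereas *Myc* (-2.16, SE 0.07) and the heat shock gene *Hspa1a* (-1.62, SE 0.08) were higher in the mesenchyme. By their brightest probes, the EGR genes differed from *Fos* and *Jun* in direction on every array. *Dusp1* (-1.24), *Atf3* (-1.06) and *Junb* (-0.52), also among the 20, were higher in the mesenchyme like the EGR genes. Markers of leukocytes (7 of 8 higher in the mesenchyme, mean signals of 7.08 to 7.21 against 5.49 to 5.57), of endothelium (10 of 10, 9.18 to 9.23 against 5.62 to 5.95) and of mesothelium (7 of 9, 6.82 to 6.95 against 4.26 to 4.34) moved with the EGR genes, *Klf15*, *Sp6* and *Sp8*, and their part in these values was not tested. Of 10 smooth muscle genes, 8 passed towards the epithelium, with mean signals of 10.38 to 10.46 against 8.07 to 8.27. Under the replicate block 9 passed, with *Des* added (0.37, limma adjusted p = 0.006). The part of smooth muscle in the values of *Klf5*, *Klf9*, *Sp5* and the other genes called higher in the epithelium was not tested either. *Wt1*, one of the mesothelium markers just counted and a zinc-finger gene whose protein binds sites like those of EGR proteins, was higher in the mesenchyme (-4.03, SE 0.08), while *Vezf1*, *Maz* and *Zfp148*, for other factors of GC-rich sites, did not pass and *Patz1* was higher in the epithelium (0.40, SE 0.10). *Zfp148* passed towards the epithelium under the replicate block (0.18, limma adjusted p = 0.00454).

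**Figure D4:**
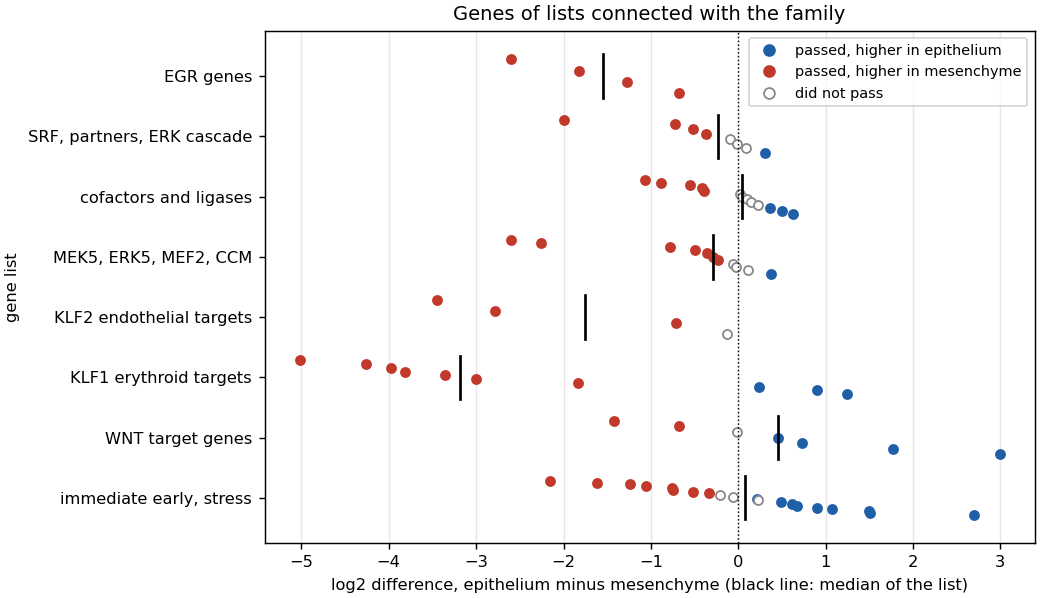
Log2 difference, epithelium minus mesenchyme (x axis), of each gene in 8 lists connected with the family (y axis), with filled points for genes that passed limma's test and a black line at the median of each list. All 4 EGR genes lie to the left of 0. Of the 11 genes of the MEK5, ERK5 and MEF2 route, 7 passed towards the mesenchyme and 1 towards the epithelium, while the immediate early genes lie on both sides.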

How the data were processed

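RNA of 4 epithelium and 4 mesenchyme samples of E12.5 mouse lung tips was hybridised to 4 arrays of 2 colours. The authors deposited signals on a scale taken here as log2 from their range, since no source gives the base. Per the methods they were background corrected with normexp, put on a log scale, quantile-normalized and evaluated with limma. The table holds each feature on its own, and sample medians were 4.05 to 4.14. The methods name other array designs than the platform whose annotation was used. Of 33653 probes with 1 gene, 33517 matched the RefSeq table of GRCm38.p6, 56 probes with several genes and 523 features with a missing value were left out, and 1 probe of *Egr2* was among the latter. With so few arrays, precision is limited by their number.

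The comparison used limma 3.58.1 under R 4.3.3 (lmFit, then eBayes) without pairing, with Benjamini-Hochberg adjustment over 18996 genes. Probes were also fitted one by one over all probes. Labels and numbers put epithelium and mesenchyme samples of a number on 1 array, and their deviations from the tissue means correlated at 0.35, 0.62, 0.53 and 0.47, so the fit with the array as a replicate block is given where it changed a call. The series description gives 4 embryonic mice but not which sample came from which, so the p-values reflect only how these samples vary, part of which may be technical. The genes and lists were chosen with earlier results of these data known. All 28 genes are named, with the 2 largest differences in each direction of each list, and single genes beyond that rule after their values were seen. Only the fit without pairing was tested on simulated data, in which samples of 1 array did not vary together. Python 3.11.15, pandas 2.3.3 and matplotlib 3.10.9 were also used. Alternatives were the block, loess within arrays, median centring, other probes of a gene, a filter on dim genes, missing values kept, other variance settings and each replicate left out.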

Additional observations from a re-analysis of the deposited data

Results flagged for a closer look

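In 1 of 56 groups of 4 samples, 1 sample stood far from the others for its group's range. The epithelium signal of *Klf16* was 8.16 in replicate 4 and 8.04 to 8.06 in the other replicates. Chance flags about 1 in 20 such groups.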

How the results depend on the processing

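With the array as a replicate block, which pairs the samples, the counts were 8 genes towards the epithelium and 14 towards the mesenchyme, with *Klf13* added to the first and *Klf2*, *Klf4*, *Klf11* and *Klf12* to the second; no other call of the 28 genes changed. Over all alternatives run, the counts were 6 to 8 and 7 to 14. With the dimmer *Klf2* probe in place of the brighter, a choice made after the probes were seen, 11 genes were called higher in the mesenchyme. Leaving out each replicate gave 6 to 7 and 9 to 11. The sign changed with the dimmest probe of *Egr3* (0.246), *Klf5* (-0.088), *Klf8* (-0.279), *Klf12* (0.079), *Klf13* (-0.142), *Sp3* (0.111) and *Sp6* (0.01), with the mean of all probes of *Klf8* (-0.076) and *Klf13* (-0.027), without replicate 2 for *Klf16* (-0.001, with 0.035 as the highest value on leaving out a replicate) and *Klf17* (0.036, lowest -0.33), and with loess (-0.013) or without replicate 3 (-0.038, highest 0.039) for *Sp9*. None of these passed the test under that setting. *Klf3* no longer passed with the mean of its probes (-0.166), with its dimmer probe (-0.091) or without replicate 2 (-0.214), *Sp1* without replicate 4 (0.338) and *Sp3* with the mean of its probes (-0.103). Calls were also gained outside the block. *Klf2* passed towards the mesenchyme with the mean of its probes (-1.91), with its dimmest probe (-3.649), with dim genes left out (adjusted p = 0.0403), with trend and robust eBayes (adjusted p = 0.0248) and without replicate 3 (adjusted p = 0.0424). *Klf12* passed towards the mesenchyme with the mean of its probes (adjusted p = 0.00838), with dim genes left out (adjusted p = 0.0385), with trend and robust eBayes (adjusted p = 0.0191), without replicate 4 (adjusted p = 0.0127) and on its second probe (-0.423). *Klf6* passed towards the epithelium with the mean of its probes (0.164) and with its dimmer probe (0.267). The cause was not tested. Of the 28 genes, 4 had a mean signal among the dimmest 30% of all genes.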
